A study of Homo sapiens with 18 samples.

Results

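BoM and LM2 were both derived from the cell line MDA-MB-231, a human breast cancer model that lacks hormone receptors and HER2 amplification, and were selected in mice for growth in bone and in lung. The comparison described here is between BoM and LM2 cells that expressed the control hairpin shCtrl. The members were chosen by the line and hairpin in the sample titles, which gives 3 BoM shCtrl and 3 LM2 shCtrl libraries of the 18 libraries in the series. The series also holds the brain-tropic line BrM3, and each of the 3 lines has 3 libraries with shWDR5, a hairpin against WDR5, a subunit of histone methyltransferase complexes. All cells carried a hairpin inducible by doxycycline (DOX), were grown as monolayers and received DOX at 1 μg/mL for 3 days, so no library came from uninduced cells. The labels state that replicates of a line came from separate passages. RNA came from cultured cells and not from cells growing in bone or lung, and each line is a single selected derivative, so line and target organ cannot be told apart.

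The question of the comparison is how a bone-tropic and a lung-tropic line of the same origin differ where WDR5 is not targeted. As background, circulating breast cancer cells that express the chemokine receptor CXCR4 can home to marrow, where its ligand CXCL12 is abundant. In bone, tumour cells act on osteoclasts and osteoblasts through secreted factors and matrix proteases. In the lung, adhesion molecules and matrix proteins such as VCAM1, tenascin C and SPARC are among the genes that earlier work tied to colonization by MDA-MB-231 derivatives. The lists of bone metastasis genes and lung metastasis genes used below come from that earlier work on lines of the same family. The paper states that LM2 and BoM were themselves described earlier, so the lists may rest on these very lines. The work behind the lists used other samples, but its lists are not independent of the choice of lines. The lists were taken up here with earlier results of these data known.

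Start-site regions were looked up for bone metastasis, lung metastasis and cytokine or chemokine genes that differed at least 16-fold. The difference also had to pass the test used below. The 4 genes with a window are a homing receptor, an adhesion molecule, a secreted matrix protein and an inflammatory cytokine. Each region shown is the RefSeq window on GRCh38.p14 from 250 bases before to 50 bases after a start site, written 5′ to 3′ on the gene's strand. Capitals mark matches to the TATA box letters TATAAA, the AP-1 letters TGANTCA, where N is any base, and the NF-kB letters GGG, any 2 bases, TT, any base and CC, on either strand. The CXCR4 window lies at chr2:136118100-136118399 (minus strand) and is 1 of 3 listed for the gene, the VCAM1 window at chr1:100719492-100719791 (plus strand), the IL1B window at chr2:112836730-112837029 (minus strand) and the SPARC window at chr5:151686866-151687165 (minus strand).
CXCR4: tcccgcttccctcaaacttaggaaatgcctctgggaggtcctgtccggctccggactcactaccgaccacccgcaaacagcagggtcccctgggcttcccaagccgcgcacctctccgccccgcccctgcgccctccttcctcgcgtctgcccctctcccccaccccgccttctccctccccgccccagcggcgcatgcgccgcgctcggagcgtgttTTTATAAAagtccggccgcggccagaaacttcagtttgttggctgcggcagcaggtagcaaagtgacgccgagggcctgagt
VCAM1: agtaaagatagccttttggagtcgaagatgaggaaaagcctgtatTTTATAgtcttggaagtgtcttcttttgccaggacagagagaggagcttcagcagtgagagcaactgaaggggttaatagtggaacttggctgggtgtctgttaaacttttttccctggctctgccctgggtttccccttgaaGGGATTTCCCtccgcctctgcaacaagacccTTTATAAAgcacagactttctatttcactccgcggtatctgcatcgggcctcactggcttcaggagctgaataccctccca
IL1B: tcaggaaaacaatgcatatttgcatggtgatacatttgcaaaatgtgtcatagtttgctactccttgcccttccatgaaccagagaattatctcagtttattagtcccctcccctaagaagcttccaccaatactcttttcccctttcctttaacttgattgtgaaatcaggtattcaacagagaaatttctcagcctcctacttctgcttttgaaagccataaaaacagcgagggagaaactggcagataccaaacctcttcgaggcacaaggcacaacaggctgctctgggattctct
SPARC: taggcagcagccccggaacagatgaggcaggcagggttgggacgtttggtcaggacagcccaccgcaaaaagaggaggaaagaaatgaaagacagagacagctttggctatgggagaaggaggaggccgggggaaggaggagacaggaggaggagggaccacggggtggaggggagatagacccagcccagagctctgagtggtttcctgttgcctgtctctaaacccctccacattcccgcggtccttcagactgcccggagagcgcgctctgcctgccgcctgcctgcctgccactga
Counted from the start site, the VCAM1 window held an NF-kB match at -62 and TATA matches at -205, -31 and -29, of which the last pair overlap. The CXCR4 window held overlapping TATA matches at -32 and -30, and the windows of IL1B and SPARC held no match to these letters. Of all 35114 windows in the table, 5.68% held the NF-kB letters, 11.5% the TATA letters and 7.71% the AP-1 letters. The dinucleotide CG occurred 27 times in the CXCR4 window, 11 times in that of SPARC, 5 times in that of VCAM1 and 2 times in that of IL1B, against a median of 14 over all windows. ADAMTS1, CCL2, CSF3, IL13RA2 and MMP2 met the same rule and have no entry in the table.

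Total counts were 20064987 to 38481218 in the BoM libraries and 25472903 to 119667013 in the LM2 libraries. Levels below are CPM, counts scaled to a common library total on the 12081 tested genes with TMM factors. They compare a gene between libraries, and since they are not divided by gene length they do not rank different genes. Coordinates are on GRCh38. Pearson's r of log2 CPM across genes was 0.986 to 0.991 between BoM libraries, 0.978 to 0.994 between LM2 libraries and 0.881 to 0.920 between the lines. The source labels of 4 of these 6 libraries name another line than the titles and cell line labels do. By expression, all 18 libraries were nearest to a library of the line in their title. WDR5 itself stood at 87.5, 90.5 and 90.4 CPM in BoM and 113, 128 and 134 CPM in LM2, a log2 difference of -0.48 ± 0.13 (adjusted p = 0.00548).

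BoM and LM2 differed widely under the threshold used, an adjusted p under 0.05 in edgeR's quasi-likelihood test with Benjamini-Hochberg adjustment. Of 12081 tested genes, 3135 (25.9%) were called higher and 3121 (25.8%) lower in BoM, 51.8% in all. At a difference of at least 2-fold as well, 648 genes (5.36%) were higher and 870 (7.2%) were lower in BoM. All tested genes together had a median of -0.01 on the log2 scale. TMM scaling places this median near 0 by design, so the median and the near-even split of calls depend on the scaling. The deposited counts hold 0 rows for spike-in RNA, so a shift shared by most genes could not be seen. At least 4-fold differences were called for 249 genes higher and 207 genes lower in BoM. The 3 BoM and 3 LM2 libraries did not overlap for 6782 genes (56.1%). In these bulk samples, fewer cells that express a gene and less RNA per cell cannot be told apart.

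**Figure D1:**
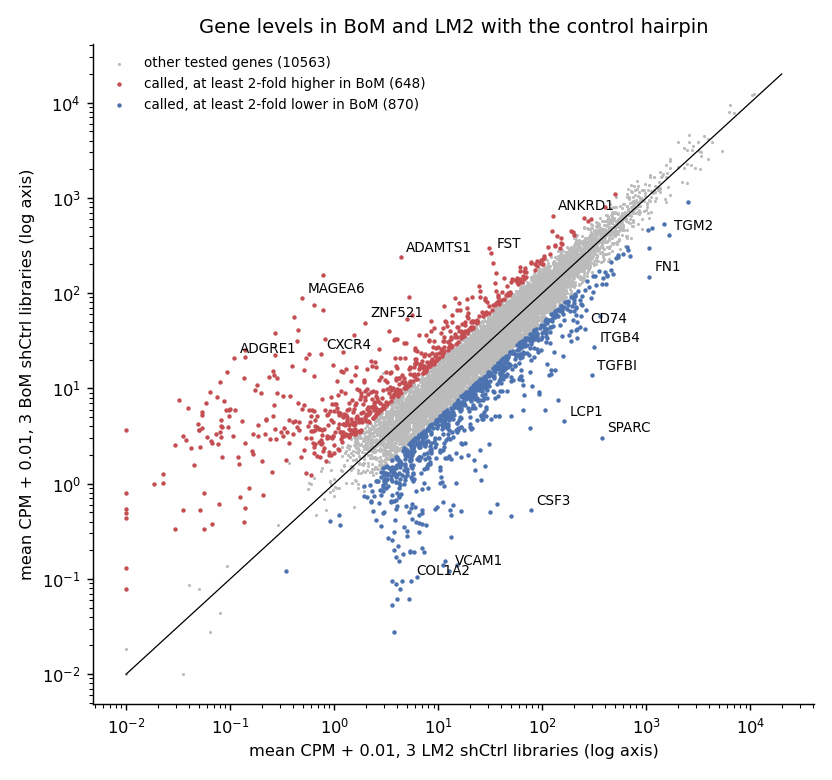
Mean level of each of 12081 tested genes in the 3 LM2 shCtrl libraries (horizontal, CPM + 0.01, log axis) and the 3 BoM shCtrl libraries (vertical, same scale). Red points are the 648 genes called at least 2-fold higher in BoM, blue points the 870 called at least 2-fold lower, grey points the others, and the line marks equal levels. ADAMTS1 and FST lie far above the line and SPARC, LCP1 and CSF3 far below it.

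Of the 9 bone metastasis genes, all tested, 6 were higher in BoM (66.7%, against 25.9% of all tested genes), none was lower and 3 did not pass the test. Their median log2 fold change was 0.99. The list is not independent of the choice of lines, so these shares are a description. The largest difference was that of ADAMTS1 (chromosome 21, 26835755 to 26845409, minus strand), a secreted protease that cleaves proteoglycans. ADAMTS1 stood at 279, 197 and 242 CPM in the BoM libraries and 6.09, 3.82 and 3.2 CPM in the LM2 libraries. The groups were far apart, with a log2 fold change of 5.84 ± 0.25 (57.2-fold, adjusted p = 9.88e-12). CXCR4 (chromosome 2, 136114349 to 136119177, minus strand), the receptor whose start-site window is printed above, stood at 22.5, 23.5 and 22.4 CPM in BoM and 0.983, 0.729 and 0.473 CPM in LM2. It was nearly silent in LM2 and evenly expressed in BoM, with a log2 fold change of 5.11 ± 0.18 (34.6-fold, adjusted p = 1.54e-12).

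FST, the secreted follistatin that binds and blocks activins, stood at 226, 268 and 291 CPM in BoM and 37.3, 29.4 and 29.5 CPM in LM2 (log2 fold change 3.03 ± 0.17, adjusted p = 2.13e-10). FGF5, a fibroblast growth factor, stood at 31.3, 22.3 and 27.3 CPM in BoM and 10.5, 9.56 and 9.44 CPM in LM2 (log2 fold change 1.46 ± 0.13, adjusted p = 9.37e-08). CCN2, a matricellular protein also known as CTGF, stood at 493, 458 and 527 CPM and 257, 238 and 259.6 CPM (log2 fold change 0.97 ± 0.08, adjusted p = 5.43e-08). None of these 3 overlapped between the lines, which held for 56.1% of all tested genes. MMP1, an interstitial collagenase that is on both lists, was called higher in BoM at 0.73 ± 0.18 (adjusted p = 0.00288), but the lowest BoM library, at 310 CPM, lay below the highest LM2 library, at 339 CPM. The cytokine IL11 stood at 206, 230.2 and 192 CPM in BoM and 199, 185 and 225 CPM in LM2, and its log2 difference of 0.04 ± 0.14 was within the spread of the replicates (adjusted p = 0.817). The proteoglycan gene SRGN likewise overlapped, at 368, 299 and 391 CPM against 413, 299.7 and 334 CPM (adjusted p = 0.922). In the brain-tropic BrM3, ADAMTS1 averaged 204 CPM, CXCR4 47.6 CPM, FST 102 CPM, FGF5 71.1 CPM, CCN2 356 CPM and MMP1 687 CPM. All of these BrM3 means lay above the LM2 means, and those of CXCR4, FGF5 and MMP1 also lay above the BoM means. Levels above those of LM2 were therefore not particular to BoM for these genes.

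SPP1, which encodes osteopontin, varied more within each line than between them. It stood at 0.355, 0.0523 and 31.5 CPM in BoM and 1.81, 1.29 and 11.4 CPM in LM2, so replicate 3 was the highest of its group in both lines. Its log2 fold change was 0.99 ± 1.52 (adjusted p = 0.613), and it was -4.61 without BoM replicate 3 (adjusted p = 0.087).

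Of the 22 lung metastasis genes, 21 were tested. In BoM 13 were lower (61.9%, against 25.8% of all tested genes), 2 were higher, 6 did not pass the test, and the median log2 fold change was -1.10. The untested member was listed at 0 CPM in all 6 libraries. This list, too, is not independent of the choice of lines, so its shares are a description. SPARC (chromosome 5, 151661096 to 151686975, minus strand), a secreted collagen-binding protein, stood at 2.92, 5.12 and 1.06 CPM in BoM and 377, 372 and 367 CPM in LM2. The LM2 libraries were nearly equal and every BoM library was far below them, with a log2 fold change of -6.85 ± 0.41 (adjusted p = 5.16e-10). MMP2 (chromosome 16, 55389700 to 55506691, plus strand), a gelatinase, stood at 0.076, 0.314 and 0 CPM in BoM and 12.1, 17.2 and 16.1 CPM in LM2. VCAM1 (chromosome 1, 100719742 to 100739045, plus strand), an adhesion receptor for leukocyte integrins, stood at 0.177, 0.157 and 0 CPM in BoM and 14.5, 10.6 and 13.2 CPM in LM2. BoM replicate 3 had no read on either gene, and the log2 fold changes were -6.62 ± 0.44 for MMP2 (adjusted p = 1.86e-09) and -6.57 ± 0.32 for VCAM1 (adjusted p = 4.46e-11).

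IL13RA2, a decoy receptor for interleukin 13, stood at 1.32, 1.59 and 1.66 CPM in BoM and 30.5, 24.8 and 29.9 CPM in LM2 (log2 fold change -4.23 ± 0.20, adjusted p = 3.37e-11). ANGPTL4, a secreted regulator of lipid uptake and vessel permeability, stood at 0.735, 1.49 and 1.26 CPM and 6.2, 12.4 and 13.6 CPM (log2 fold change -3.23 ± 0.32, adjusted p = 2.65e-07). TNC, the matrix protein tenascin C, stood at 71.3, 49.8 and 50.4 CPM in BoM and 309, 408 and 366 CPM in LM2 (log2 fold change -2.66 ± 0.18, adjusted p = 2.17e-09). These 3 did not overlap between the lines, like 56.1% of all tested genes. EREG, an EGFR ligand, was lower in BoM at -2.38 ± 0.14, KRT81 at -2.24 ± 0.24, the transcriptional inhibitor ID1 at -2.21 ± 0.34, PLAAT4 at -1.10 ± 0.21 and LTBP1, which binds latent TGF-beta, at -0.93 ± 0.16 on the log2 scale. CXCL1, a neutrophil chemokine, and PTGS2, the inducible cyclooxygenase COX-2, were also called lower, at -1.25 ± 0.44 (adjusted p = 0.0243) and -0.69 ± 0.28 (adjusted p = 0.0479), but their libraries overlapped. CXCL1 was no longer called without BoM replicate 2 or 3 or LM2 replicate 3, at -0.97, -1.22 and -0.85, and PTGS2 without BoM replicate 2 or 3 or LM2 replicate 1 or 3, at -0.43, -0.73, -0.50 and -0.70.

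NEDD9, a scaffold of focal adhesions, went the other way among the lung metastasis genes. NEDD9 stood at 39.1, 40.9 and 39.3 CPM in BoM and 3.48, 3.66 and 2.82 CPM in LM2 (log2 fold change 3.60 ± 0.15, adjusted p = 8.02e-12). The members that did not pass the test were LY6E at 0.53 ± 0.22 (adjusted p = 0.0519), FSCN1 at 0.14 ± 0.24, ROBO1 at 0.06 ± 0.15, ID3 at -0.14 ± 0.34, MAN1A1 at -0.16 ± 0.18 and KYNU at -0.32 ± 0.16. LY6E did not overlap between the lines, like 56.1% of all tested genes. FSCN1, ROBO1, ID3, MAN1A1 and KYNU overlapped.

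**Figure D2:**
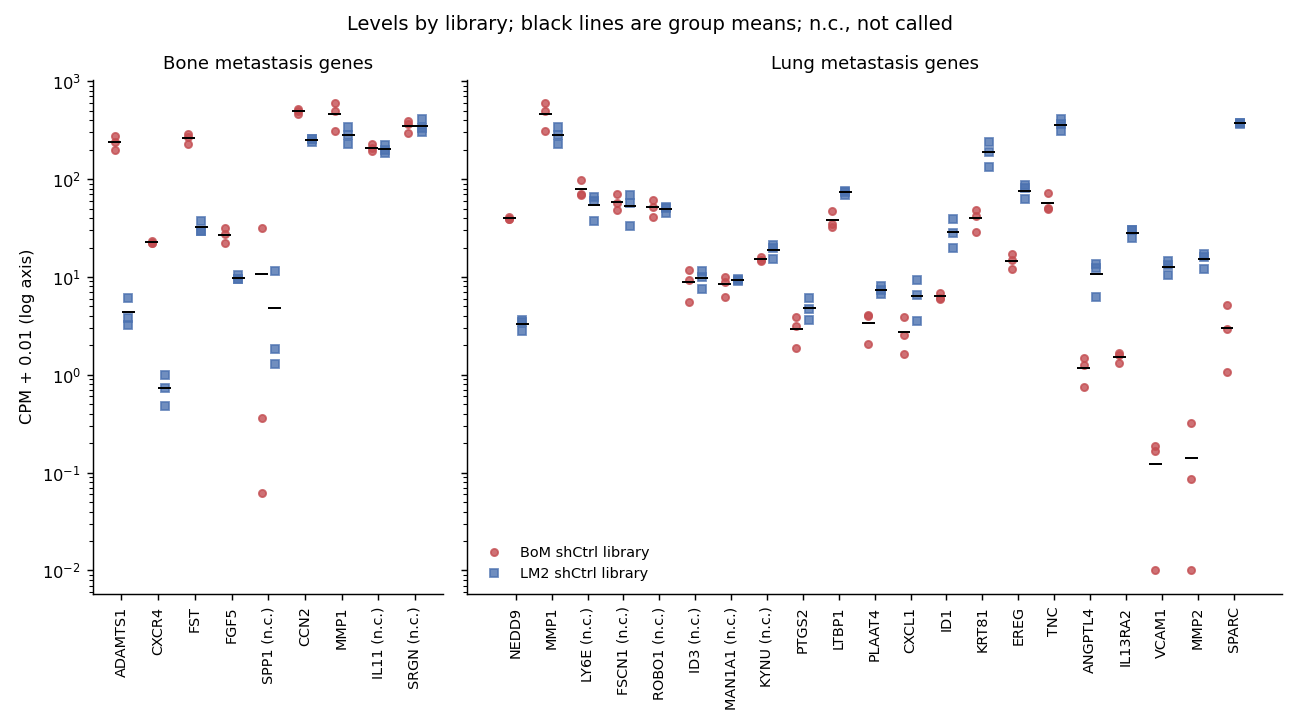
Level of every tested bone metastasis gene (left) and lung metastasis gene (right) in each BoM shCtrl library (red circles) and LM2 shCtrl library (blue squares), in CPM + 0.01 on a log axis, with group means as black lines. Genes are ordered by log2 fold change, and n.c. marks those that did not pass the test. ADAMTS1, CXCR4 and FST stand apart at the left of their panel, VCAM1, MMP2 and SPARC at the right of theirs, and SPP1 spreads widely within each line.

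The largest differences across all protein-coding genes that were well expressed in the higher line, at a mean of at least 10 CPM, and whose libraries did not overlap between the lines, were differences between expression and near silence. The 10 genes highest in BoM were ADGRE1, COX7B2, ZNF300, CCBE1, MAGEA6, NRK, GABRA3, PRDM9, CCL2 and SLAMF7, with log2 fold changes from 8.33 to 6.79. ADGRE1, an adhesion G protein-coupled receptor known from myeloid cells, stood at 19.7, 21 and 21.2 CPM in BoM and 0.189, 0.102 and 0.00815 CPM in LM2 (adjusted p = 1.44e-11). CCBE1, a secreted protein needed for lymphatic vessel growth, stood at 57.7, 55.9 and 56.8 CPM and 0.945, 0.22 and 0.0407 CPM (log2 fold change 7.88 ± 0.48). GABRA3, a subunit of the GABA-A receptor, stood at 16, 13.5 and 15.5 CPM and 0.113, 0.0678 and 0.0652 CPM (log2 fold change 7.62 ± 0.28). In BrM3, which enters here only for comparison, ADGRE1, ZNF300, CCBE1 and SLAMF7 averaged 17.8, 17.6, 53.3 and 44.2 CPM. Their BoM means were 20.6, 21.6, 56.8 and 67 CPM. NRK averaged 61.1 CPM in BrM3 and 12.9 CPM in BoM. COX7B2, MAGEA6, GABRA3, PRDM9 and CCL2 averaged 3.64, 8.38, 1.18, 0.159 and 3.71 CPM in BrM3.

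The 10 genes lowest in BoM were CSF3, SPARC, PRAG1, MMP2, VCAM1, SLC13A4, LGR6, MFHAS1, RGS4 and PADI4, with log2 fold changes from -7.09 to -5.64. LGR6, a receptor for R-spondins in Wnt signalling, stood at 0.0507, 0.34 and 0 CPM in BoM and 9.11, 12.9 and 11 CPM in LM2 (log2 fold change -6.16 ± 0.46). RGS4, a regulator that ends G protein signals, stood at 0.76, 0.653 and 0.403 CPM and 42, 34.5 and 34.1 CPM (log2 fold change -5.85 ± 0.30). PADI4, an enzyme that converts arginine in proteins to citrulline, stood at 0.152, 0.392 and 0.252 CPM and 8.39, 15.1 and 16.5 CPM (log2 fold change -5.64 ± 0.52). PRAG1 and MFHAS1 are near neighbours on chromosome 8, at 8317736 to 8386439 and 8783354 to 8893630, both on the minus strand. PRAG1, a pseudokinase, stood at 0.253, 0.993 and 0.101 CPM in BoM and 32.4, 57.2 and 61.6 CPM in LM2 (log2 fold change -6.65 ± 0.48). MFHAS1 stood at 0.203, 0.418 and 0.856 CPM in BoM and 32.7, 32.2 and 28.5 CPM in LM2 (log2 fold change -6.16 ± 0.31). The BrM3 means of this pair were 13.6 and 13.4 CPM, between those of BoM and LM2. SPARC and RGS4 also lay between them in BrM3, at 119 and 14.8 CPM. CSF3, MMP2, VCAM1, SLC13A4, LGR6 and PADI4 were low in BrM3 as in BoM, at means of 0.795, 0.51, 0.332, 0.0956, 0.386 and 0.0924 CPM.

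The genes with the smallest p-values were chosen by that rank, so their values are a description. ZNF521, a zinc finger factor known from stem cell and osteoblast biology, stood at 50.5, 44.6 and 51.3 CPM in BoM and 2.27, 1.93 and 1.65 CPM in LM2 (log2 fold change 4.68 ± 0.13, adjusted p = 2.3e-13). AMPH, which encodes amphiphysin of the endocytic machinery, stood at 73.6, 69 and 76 CPM and 11.9, 11.4 and 10.8 CPM (log2 fold change 2.68 ± 0.08, adjusted p = 2.3e-13). PMEPA1, a TGF-beta target that restrains its own pathway, stood at 6.79, 8.34 and 7.66 CPM in BoM and 124, 156 and 149 CPM in LM2 (log2 fold change -4.23 ± 0.13, adjusted p = 2.3e-13). SP140 and INHBB followed among the genes higher in BoM, and HTRA1, TGFBI, LCP1 and MAGEB2 among those lower. LCP1, the actin bundler L-plastin known from leukocytes, stood at 5.27, 4.81 and 3.53 CPM in BoM and 167, 164 and 155 CPM in LM2 (log2 fold change -5.13 ± 0.19). In BrM3, ZNF521, AMPH, PMEPA1, LCP1 and INHBB averaged 35.9, 35.4, 12.1, 31.8 and 11.2 CPM, between the BoM and LM2 means. SP140, HTRA1 and TGFBI averaged 36.6, 38.8 and 14.7 CPM in BrM3, near their BoM means of 32.5, 33.9 and 13.7 CPM. MAGEB2 lay below both lines in BrM3, at 0.03 CPM.

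Among genes with a mean of at least 500 CPM in the higher line, 6 were called at least 2-fold higher in BoM, namely ANKRD1, CRIM1, CCN1, NOP56, NOLC1 and CCT6A. ANKRD1, a YAP target, stood at 641, 670.3 and 645 CPM in BoM and 145, 108 and 124 CPM in LM2 (log2 fold change 2.38 ± 0.12), and CCN1, another YAP target, at 1133, 1021 and 1107 CPM and 525, 456 and 525 CPM (log2 fold change 1.12 ± 0.10). NOP56 and NOLC1, which act in the nucleolus, differed by 1.05 ± 0.11 and 1.01 ± 0.09. In the other direction 14 abundant genes were at least 2-fold lower, and the 8 with the largest difference were FN1, TGM2, FAM129B, S100A6, RBM3, EEF2, PRSS23 and PLEC. TGM2, a transglutaminase that crosslinks matrix proteins, stood at 423, 431 and 359 CPM in BoM and 1284, 1789 and 1837 CPM in LM2 (log2 fold change -2.02 ± 0.15). EEF2, the elongation factor of translation, stood at 534, 622 and 447 CPM and 964, 1582 and 1909 CPM (log2 fold change -1.48 ± 0.22). LM2 replicate 1 was the lowest LM2 library for TGM2, EEF2, FAM129B, S100A6 and PLEC, and was still above every BoM library.

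Genes of the extracellular matrix were mostly lower in BoM. Of 77 collagen, laminin and other matrix genes 60 were tested, of which 36 were lower (60%, against 25.8% of all tested genes), 9 higher and 15 did not pass the test, with a median log2 fold change of -0.84. The 17 untested genes reached at most 3.24 CPM in any BoM or LM2 shCtrl library. A gene enters the test where it is high in some library, so counts over tested members describe those members only. FN1, fibronectin, stood at 174, 137 and 135 CPM in BoM and 968, 1206 and 1003 CPM in LM2 (log2 fold change -2.83 ± 0.16, adjusted p = 3.18e-10). TGFBI, an integrin-binding matrix protein induced by TGF-beta, stood at 15.7, 13 and 12.5 CPM in BoM and 274, 320.3 and 307 CPM in LM2 (log2 fold change -4.45 ± 0.16, adjusted p = 1.54e-12). The type I collagen chain COL1A1 stood at 4.87, 7.74 and 4.99 CPM in BoM and 35.2, 71.3 and 87.1 CPM in LM2, and its partner COL1A2 at 0.127, 0.131 and 0 CPM and 4.16, 6 and 6.05 CPM. Both chains were lower in every BoM library, at -3.45 ± 0.30 and -5.71 ± 0.38.

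Members of the matrix list known from basement membranes are given here as examples chosen after their values were seen. COL7A1 was lower at -3.09, COL18A1 at -2.95, LAMA4 at -2.58, LAMA5 at -1.69, COL4A2 at -1.62, LAMA3 at -1.62, COL4A1 at -1.46, AGRN at -1.46, LAMB1 at -1.45 and HSPG2 at -1.23 on the log2 scale. AGRN and HSPG2 overlapped, with LM2 replicate 1 inside the BoM range. LAMA2 and LAMA1 were higher by 0.54 and 0.48, and LAMB3 and LAMB2 did not pass the test. The matrix genes highest in BoM were MATN2, which encodes a matrilin, and COL8A1. MATN2 stood at 54.9, 61.2 and 55.2 CPM in BoM and 20.6, 19.2 and 17.5 CPM in LM2 (log2 fold change 1.59 ± 0.09), and COL8A1 at 417, 409 and 365 CPM and 142, 149 and 127 CPM (log2 fold change 1.51 ± 0.10).

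Of 24 integrin genes 13 were tested, of which 2 were higher in BoM (15.4%), 8 lower (61.5%) and 3 did not pass the test, against 25.9% and 25.8% of all tested genes. ITGB4, the partner of ITGA6 in hemidesmosomes, stood at 22.9, 37.1 and 21.3 CPM in BoM and 184, 370.0 and 397 CPM in LM2 (log2 fold change -3.54 ± 0.29, adjusted p = 2.66e-08), and ITGA6 was lower at -0.70. ITGB2, the beta chain of the leukocyte integrins, was higher, at 28.7, 35.9 and 25.9 CPM against 3.93, 5.1 and 5.73 CPM (log2 fold change 2.60 ± 0.18, adjusted p = 2.21e-09). ITGB1, the common beta chain, did not pass the test, at -0.29. Of 45 tested matrix protease and inhibitor genes 9 were higher (20%) and 21 lower (46.7%), with ADAMTS1 and the cystatins CST1 (2.80 ± 0.37) and CST4 (2.63 ± 0.31) at the upper end and MMP2, CTSS (-2.67 ± 0.23) and ADAM12 (-2.42 ± 0.21) at the lower end. The urokinase gene PLAU stood at 159, 153 and 150.1 CPM in BoM and 405, 409.9 and 437 CPM in LM2 (log2 fold change -1.44 ± 0.09).

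Cytokine genes held opposite extremes. Of 48 genes for cytokines and chemokines 21 were tested, of which 2 were higher in BoM (9.5%), 9 lower (42.9%) and 10 did not pass the test, against 25.9% and 25.8% of all tested genes. CCL2 (chromosome 17, 34255274 to 34257208, plus strand), which attracts monocytes, stood at 55.6, 73.4 and 95.5 CPM in BoM and 1.02, 0.356 and 0.497 CPM in LM2 (log2 fold change 7.08 ± 0.46, adjusted p = 1.52e-09). CSF3 (chromosome 17, 40015361 to 40017813, plus strand), the granulocyte growth factor G-CSF, stood at 0.456, 0.889 and 0.202 CPM in BoM and 50.4, 58.6 and 122 CPM in LM2 (log2 fold change -7.09 ± 0.52, adjusted p = 6.04e-09). CCL2 was near silent in LM2 and CSF3 in BoM. Neither of these 2 genes overlapped between the lines, and nor did 56.1% of all tested genes. IL1B, an inflammatory cytokine, stood at 6.34, 3.01 and 2.27 CPM in BoM and 73.4, 51.9 and 101 CPM in LM2 (log2 fold change -4.24 ± 0.36, adjusted p = 4.34e-08), and IL1A was lower at -1.84 ± 0.40. IL24 was higher, at 2.18 ± 0.20. IL6 and CXCL8 did not pass the test, at -0.33 and -0.31.

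Among 20 tested osteolysis and bone niche factors, 5 were higher in BoM (25%), 8 lower (40%) and 7 did not pass the test, against 25.9% and 25.8% of all tested genes. DKK1, a Wnt antagonist that restrains osteoblasts, stood at 434, 427 and 489.6 CPM in BoM and 141, 107 and 122 CPM in LM2 (log2 fold change 1.87 ± 0.12, adjusted p = 1.83e-09). TNFRSF11A, which encodes RANK, the receptor of the osteoclast factor RANKL, stood at 13.2, 10.4 and 14.2 CPM in BoM and 6.92, 6.94 and 5.75 CPM in LM2 (log2 fold change 0.95 ± 0.14). Neither gene overlapped between the lines, and nor did 56.1% of all tested genes. CCL2 and IL1B, whose levels are given above, were the highest and lowest members of this list, at 7.08 ± 0.46 and -4.24 ± 0.36. TGFA, ICAM1, LOX and RUNX2 were also lower in BoM, at -1.41 ± 0.11, -1.31 ± 0.23, -1.17 ± 0.14 and -0.92. The decoy receptor gene TNFRSF11B, JAG1, CSF1, BMP4 and NOG did not pass the test. Of 34 tested cytokine and chemokine receptor genes 6 were higher (17.6%) and 15 lower (44.1%), with CXCR4 and IL7R (1.07 ± 0.13) at the upper end and CCR1 (-4.42 ± 0.39) at the lower.

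Members of the TGF-beta family differed in both directions, with more of them lower in BoM. Of 41 tested TGF-beta and BMP pathway genes 9 were higher in BoM (22%), 18 lower (43.9%) and 14 did not pass the test, against 25.9% and 25.8% of all tested genes. The activin subunit genes INHBB and INHBA were both higher. INHBB stood at 32.2, 44.5 and 31.8 CPM in BoM and 1.47, 1.8 and 1.36 CPM in LM2 (log2 fold change 4.56 ± 0.16, adjusted p = 1.54e-12), and INHBA at 15.9, 10.4 and 12 CPM and 4.99, 3.29 and 3.34 CPM (log2 fold change 1.75 ± 0.20). Their antagonist FST was higher as well. The receptor gene TGFBR1 was lower at -1.30 ± 0.16, the coreceptor gene ENG at -2.09 ± 0.19, the inhibitory SMAD7 at -2.26 ± 0.19 and the target ID1 at -2.21 ± 0.34 on the log2 scale. SMAD4, the common mediator, did not pass the test, at -0.17.

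Other signalling lists held members on both sides. Of 33 tested Wnt pathway genes 4 were higher (12.1%) and 13 lower (39.4%), against 25.9% and 25.8% of all tested genes, with the receptor tyrosine kinase ROR1 at 1.51 ± 0.17 and the ligands WNT7B at -2.88 ± 0.26 and WNT9A at -2.82 ± 0.21. Of 16 tested Notch pathway genes 1 was higher, ADAM17 at 0.61 ± 0.12, and 6 were lower (37.5%), among them NOTCH3 (-2.44 ± 0.29), NOTCH1 (-1.56 ± 0.29) and the target HES1 (-1.20 ± 0.16). Of 11 tested EGFR family ligand and receptor genes 6 were higher (54.5%) and 4 lower (36.4%). NRG1, the neuregulin ligand of ERBB3 and ERBB4, stood at 148, 129.8 and 156 CPM in BoM and 50.6, 39.3 and 38.6 CPM in LM2 (log2 fold change 1.76 ± 0.11), and EGFR at 763, 561 and 644 CPM and 442, 406 and 375 CPM (log2 fold change 0.69 ± 0.12). The ligands EREG, TGFA and EGF were lower, at -2.38 ± 0.14, -1.41 ± 0.11 and -2.52 ± 0.20. Among MAPK feedback and AP-1 genes 8 of 29 were higher (27.6%) and 10 lower (34.5%), with DUSP6, a phosphatase that acts on ERK, at 1.13 ± 0.09 and SPRY4 at -1.11 ± 0.10.

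Of 44 tested genes for other growth factors and receptor kinases 17 were higher (38.6%) and 15 lower (34.1%), against 25.9% and 25.8% of all tested genes, and among these GFRA1, a receptor of GDNF, was higher by 3.57 ± 0.27 and IGFBP2 lower at -4.53 ± 0.48. Of 46 tested axon guidance genes 9 were higher (19.6%) and 22 lower (47.8%), with ROBO2 at 3.46 ± 0.27, NEO1 at 2.04 ± 0.15, SEMA4B at -1.96 ± 0.20 and PLXNB1 at -2.22 ± 0.27. Of 13 tested cadherin and protocadherin genes 4 were higher (30.8%) and 5 lower (38.5%). CDH18, a type II cadherin known from the nervous system, stood at 22, 21.6 and 24 CPM in BoM and 0.378, 0.288 and 0.114 CPM in LM2 (log2 fold change 6.72 ± 0.28, adjusted p = 6.59e-12). FAT3, an atypical cadherin, stood at 61.9, 41.6 and 55.8 CPM in BoM and 5.94, 4.77 and 4.14 CPM in LM2 (log2 fold change 3.45 ± 0.16). CDH11, known from osteoblasts, was higher by 1.11 ± 0.18. The libraries of the lines did not overlap for CDH18, FAT3 or CDH11, nor for 56.1% of all tested genes. Of 39 HOX cluster genes 3 were tested, and HOXC6 and HOXB9 were higher in BoM, at 1.57 ± 0.20 and 1.32 ± 0.11.

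The tested MHC class II genes were mostly lower in BoM. Of 16 such genes 12 were tested, and 11 were lower (91.7%, against 25.8% of all tested genes), none was higher, and the median log2 fold change was -2.04. Members that are low in BoM entered the test through libraries where they are high, so this count, too, describes the tested members. The 4 untested genes reached at most 0.634 CPM in any BoM or LM2 shCtrl library. CIITA, the coactivator that switches these genes on, stood at 5.88, 5.1 and 4.48 CPM in BoM and 23.5, 31.1 and 30.7 CPM in LM2 (log2 fold change -2.46 ± 0.19, adjusted p = 1.43e-08). CD74, the invariant chain that escorts class II molecules, stood at 42.5, 46.1 and 38.4 CPM in BoM and 205, 259.5 and 302 CPM in LM2 (log2 fold change -2.59 ± 0.19, adjusted p = 5.27e-09). HLA-DRB1 stood at 2.53, 3.42 and 2.12 CPM and 15.3, 16.6 and 17.9 CPM (log2 fold change -2.60 ± 0.17), and its counts may share reads with HLA-DRB5. No class II gene that was called overlapped between the lines, and 56.1% of all tested genes, called or not, did not overlap either. The regulators RFX5 and RFXAP were lower by smaller amounts, -0.69 and -0.76, and RFXANK did not pass the test, at -0.27.

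Class I and interferon genes held calls on both sides, more of them lower in BoM. Of 19 tested class I antigen presentation genes 5 were higher (26.3%) and 9 lower (47.4%), against 25.9% and 25.8% of all tested genes, with a median log2 fold change of 0.02. B2M, the light chain, stood at 529, 515 and 567 CPM in BoM and 955, 718 and 827 CPM in LM2 (log2 fold change -0.63 ± 0.13), while the chaperone CALR was higher by 0.63 ± 0.11 and the transporter gene TAP2 by 0.70 ± 0.09. Of 51 tested interferon-stimulated genes 11 were higher (21.6%) and 25 lower (49%). BST2, which tethers virus particles, stood at 80.4, 117 and 73.8 CPM in BoM and 17.9, 22.2 and 22.8 CPM in LM2 (log2 fold change 2.10 ± 0.18, adjusted p = 3.48e-08). HERC6 was lower at -1.40 ± 0.14 and GBP2 at -1.30 ± 0.13.

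Cancer-testis antigens, proteins that normal tissue makes mainly in germ cells, were the list with the largest median fold. Of 55 genes 54 were in the table and 14 were tested. Of these 12 were higher in BoM (85.7%) and 2 lower (14.3%), against 25.9% and 25.8% of all tested genes, with a median log2 fold change of 6.04. Since a gene that is silent in LM2 enters the test only where it is high elsewhere, this count describes the tested members and is no sign about the list. The 40 untested genes reached at most 3.38 CPM in any BoM or LM2 shCtrl library. MAGEA6 stood at 90.2, 86.2 and 90.4 CPM in BoM and 0.756, 0.543 and 0.155 CPM in LM2 (log2 fold change 7.85 ± 0.31, adjusted p = 4e-12). SSX1 stood at 36.9, 44.3 and 43.2 CPM in BoM and 0.605, 0.424 and 0.293 CPM in LM2 (log2 fold change 6.72 ± 0.26, adjusted p = 3.28e-12). MAGEA11 and XAGE2 followed, at 7.74 ± 0.40 and 7.33 ± 0.54, from 7 and 4 reads in all in the LM2 libraries. MAGEB2 had the opposite pattern, at 1.19, 1.15 and 0.907 CPM in BoM and 27.6, 24.3 and 24.6 CPM in LM2 (log2 fold change -4.53 ± 0.18), and CT83 was lower at -1.03 ± 0.12. BrM3 differed from both lines here, with means of 8.38 CPM for MAGEA6, 2.71 CPM for SSX1 and 0.03 CPM for MAGEB2. MAGEA6 and MAGEA3, and the SPANX genes, are near-identical copies, so the counts of a single copy are uncertain.

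Genes of glycolysis and the hypoxia response were mostly lower in BoM. Of 42 tested genes 28 were lower (66.7%, against 25.8% of all tested genes), 5 were higher and 9 did not pass the test, with a median log2 fold change of -0.59. CA9, a carbonic anhydrase and HIF target, stood at 0.253, 0.209 and 0.101 CPM in BoM and 3.25, 5.92 and 6.84 CPM in LM2 (log2 fold change -4.72 ± 0.43, adjusted p = 7.66e-08). CA12 stood at 5.55, 4.91 and 4.89 CPM in BoM and 36.8, 37.8 and 40.3 CPM in LM2 (log2 fold change -2.90 ± 0.12, adjusted p = 5.17e-12). HIF1A and EPAS1, the oxygen-sensitive subunits of HIF, were lower at -0.63 and -0.87, NDRG1 at -1.59, PDK1 at -1.01 and VEGFA at -0.78. HK2, a hexokinase, went the other way, at 182, 158 and 171 CPM in BoM and 56.5, 70.5 and 57.2 CPM in LM2 (log2 fold change 1.47 ± 0.10). SLC2A1 and GAPDH did not pass the test, at -0.08 and -0.13.

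In cholesterol synthesis 3 of 26 genes were higher (11.5%) and 6 lower (23.1%), against 25.9% and 25.8% of all tested genes. In fatty acid and lipid synthesis 7 of 26 tested genes were higher (26.9%) and 8 lower (30.8%), and in the ATF4 and amino acid response 8 of 30 were higher (26.7%) and 11 lower (36.7%). NUPR1 was the lowest of the ATF4 list, at -2.61 ± 0.22. Of 79 cytosolic ribosomal protein genes 17 were higher (21.5%), 6 lower (7.6%) and 56 did not pass the test. RPL31 was higher by 0.78 ± 0.14, while RPS3 was lower at -0.67 ± 0.12.

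Of 28 genes for partners of WDR5 in its complexes 3 were higher (10.7%), 9 lower (32.1%) and 16 did not pass the test, against 25.9% and 25.8% of all tested genes. DPY30 was higher by 0.87 ± 0.15, OGT by 0.49 ± 0.14 and KDM6A, a histone demethylase gene on the X chromosome, lower at -0.83 ± 0.09. Of 42 DNA replication and S phase genes 12 were higher (28.6%) and 7 lower (16.7%), and of 40 mitosis and G2/M genes 10 were higher (25%) and 4 lower (10%). Medians of these lists were 0.06 and 0.03 on the log2 scale. UNG, the uracil-DNA glycosylase, was higher by 1.15 ± 0.11 and RRM2 by 0.85 ± 0.12, and UHRF1 was lower at -1.17 ± 0.18. Of 26 tested cell cycle inhibitor and p53 target genes 4 were higher (15.4%) and 10 lower (38.5%), with GADD45A at 1.01 ± 0.15 and CDKN1A, which encodes p21, at -0.84 ± 0.12.

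**Figure D3:**
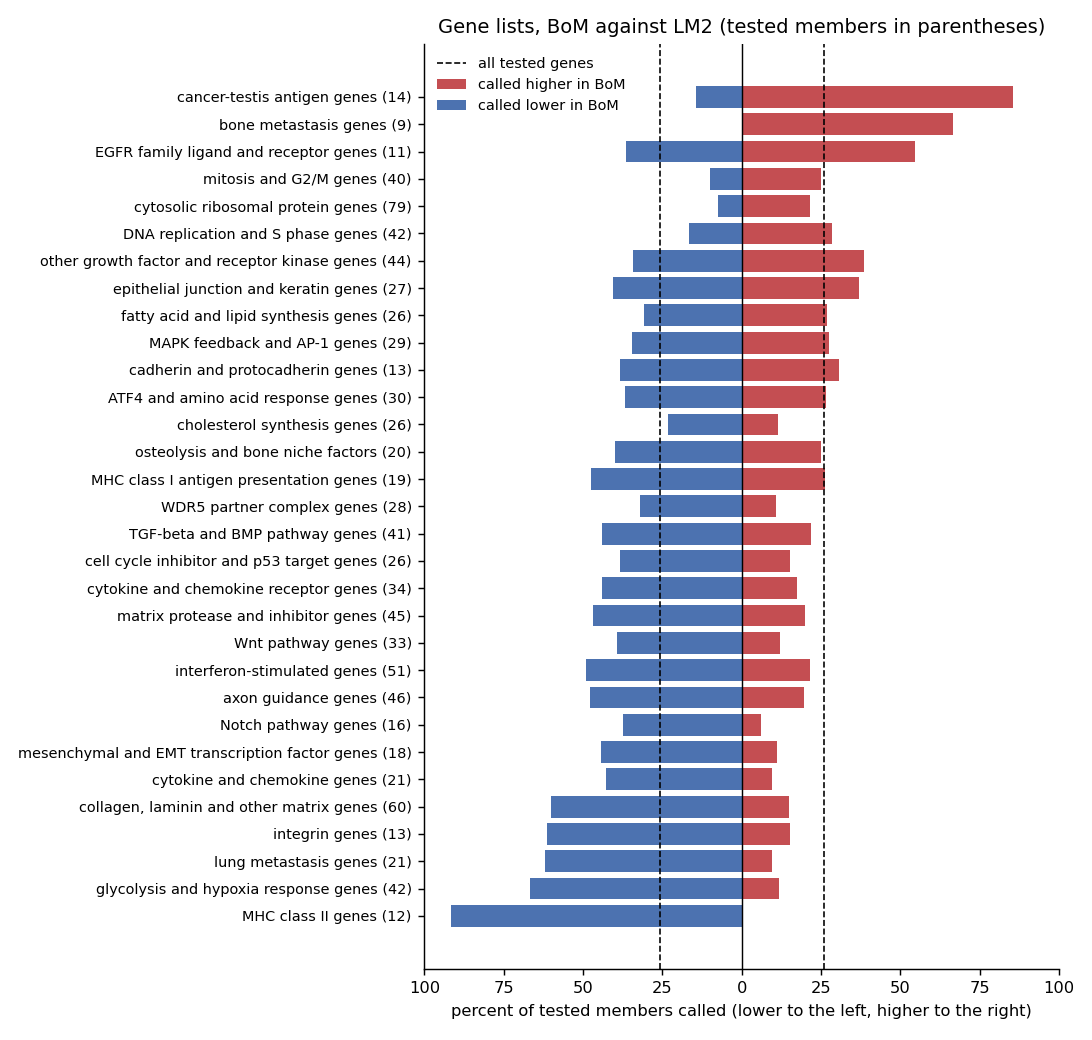
Percent of the tested members of each gene list called higher in BoM (red, to the right) and lower in BoM (blue, to the left), for lists with at least 9 tested members, whose number stands in parentheses. Dashed lines mark the shares of all tested genes, 25.9% and 25.8%. Cancer-testis antigen genes reach farthest to the right and MHC class II genes farthest to the left.

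Markers of MDA-MB-231, a mesenchymal line, were high in both lines. VIM had means of 1815 CPM in BoM and 1571 CPM in LM2, and VIM, CD44, CAV1, ANXA1, ITGB1 and AXL did not pass the test. Of the other 3 of these 9 markers, EGFR was higher in BoM at 0.69 and PLAU and FOSL1 were lower at -1.44 and -0.68. Of 11 luminal or hormone receptor markers 6 were tested, of which 2 were higher and 2 lower, and the list summed to 798 CPM in BoM and 803 CPM in LM2, with the keratins KRT8, KRT18 and KRT19 among its expressed members. ESR1, PGR, FOXA1 and CDH1 averaged at most 0.664 CPM in either line. Of 27 tested epithelial junction and keratin genes 10 were higher (37%) and 11 lower (40.7%) in BoM, against 25.9% and 25.8% of all tested genes. KRT19 stood at 110.3, 169.8 and 99.9 CPM in BoM and 26, 36.1 and 43.8 CPM in LM2 (log2 fold change 1.84 ± 0.21), CLDN1, a tight junction claudin, was higher by 2.66 ± 0.21, and KRT7 was lower at -3.09 ± 0.16. Of 18 tested mesenchymal and EMT transcription factor genes 2 were higher (11.1%) and 8 lower (44.4%), with S100A4 at -1.39 ± 0.12 and TAGLN at -2.25 ± 0.19.

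Markers of leukocytes and endothelial cells were at or near 0 in both lines, and markers of stroma were low except for COL1A1 in LM2. Of 8 leukocyte markers only CD14 was tested, with means of 0.75 CPM in BoM and 2.80 CPM in LM2, and the summed level of the list was 1.90 CPM in BoM and 3.31 CPM in LM2. Of 5 endothelial markers only PECAM1 was tested, at 2.79, 3.19 and 2.27 CPM in BoM and 2.19, 2.29 and 2.18 CPM in LM2. Of 9 markers of fibroblasts or bone stroma 3 were tested, and their summed level was 15.8 CPM in BoM and 75.7 CPM in LM2, of which COL1A1 gave 64.5 CPM in LM2. DCN, LUM, BGLAP, IBSP and SP7 each averaged at most 0.189 CPM in both lines. Of 6 basal or myoepithelial markers only OXTR was tested, at -1.33 ± 0.15, and of 7 adipocyte, neuron or erythroid markers SNAP25 and GFAP were tested, at -3.67 ± 0.20 and -0.76 ± 0.16.

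The shWDR5 libraries of both lines gave a second reading of the line difference, from other libraries. There 3519 genes (29.1%) were higher and 3345 (27.7%) lower in BoM. In both readings 5563 genes were called in the same direction, which is 88.9% of the shCtrl calls and 81% of the shWDR5 calls, and 3 were called in opposite directions. Of the 1518 genes that were called at least 2-fold different with shCtrl, 1497 were called in the same direction with shWDR5. Pearson's r between the log2 fold changes of the readings was 0.964 across genes, and genes do not count as replicates. ADAMTS1 was higher by 5.97 ± 0.25 and CXCR4 by 5.34 ± 0.19 with shWDR5, and SPARC was lower at -6.42 ± 0.40 and VCAM1 at -5.84 ± 0.34.

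Each of the 13 lung metastasis genes lower with shCtrl, and each of the 6 bone metastasis genes higher with shCtrl, was also called in that direction with shWDR5. The same held for the 14 cancer-testis antigen genes and the 11 MHC class II genes. SPP1 turned from 0.99 ± 1.52 to -1.21 ± 1.58 without passing the test in either reading. A direct test of the change in the line difference with the hairpin, by edgeR, called 0 of 12081 genes, with 625 under an unadjusted p of 0.05 and a smallest adjusted p of 0.0739. This test does not show that the line difference is the same under both hairpins.

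**Figure D4:**
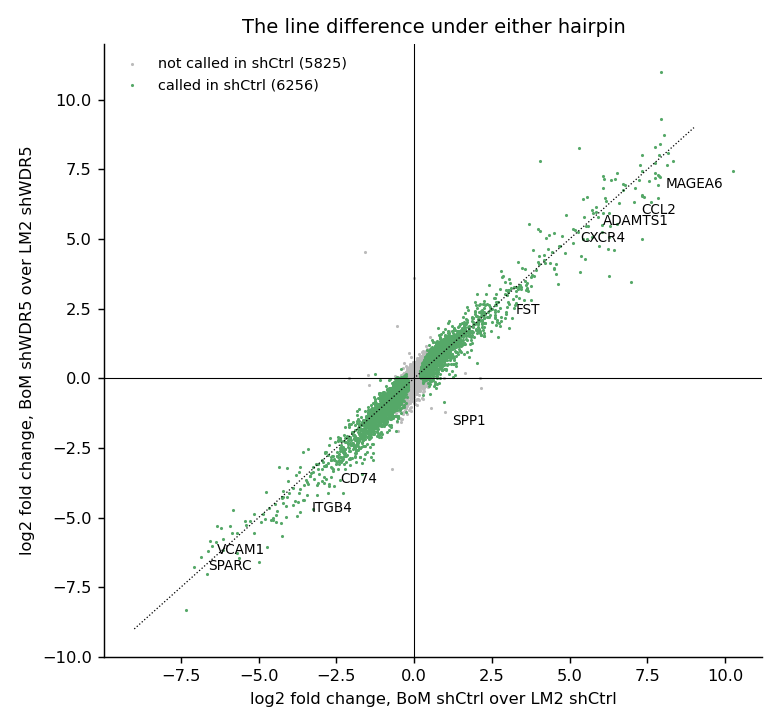
Log2 fold change of BoM over LM2 in the shCtrl libraries (horizontal) and in the shWDR5 libraries (vertical), 1 point per tested gene. Green points are the 6256 genes called with shCtrl, grey points the 5825 others, and the dotted line marks equal values. Named genes such as ADAMTS1, CXCR4, SPARC and VCAM1 lie along the line, and SPP1 does not.

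The line difference also varied along the genome. In 264 windows of 10 Mb with at least 15 tested genes, the median log2 fold change ran from -1.10 to 0.95, and 76 windows had a median between -0.1 and 0.1. The 3 lowest and 3 highest windows are given. They were picked by their medians, so their counts of called genes are a description. Of all tested genes, 25.8% were called lower and 25.9% higher. The lowest window was on chromosome 15 from 90 to 100 Mb, where 29 of 32 genes were called lower in BoM (90.6%). FURIN, a convertase that activates growth factors and proteases, lies there and stood at 15.1, 17.8 and 13.9 CPM in BoM and 80.2, 128 and 156 CPM in LM2 (log2 fold change -2.96 ± 0.22). On chromosome 9 from 130 to 140 Mb 79 of 88 genes were lower, with a median of -0.90, and WDR5 lies in that window. On the X chromosome from 40 to 50 Mb 46 of 59 genes were lower, with a median of -0.83, while SSX1 in the same window was higher by 6.72 ± 0.26.

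The highest window was on chromosome 18 from 60 to 70 Mb, with a median of 0.95. There all 15 tested genes were called higher in BoM, against 25.9% of all tested genes. The next were on chromosome 1 from 140 to 150 Mb, with a median of 0.73 and 28 of 38 genes higher, and on chromosome 2 from 10 to 20 Mb, with a median of 0.70 and 17 of 24 genes higher. SERPINB2, a plasminogen activator inhibitor, lies in the first of these and was higher by 1.68 ± 0.26, and FAM49A in the last was higher by 5.53 ± 0.24. With shWDR5 the medians of these 6 windows were -1.03, -0.96, -0.79, 1.01, 0.75 and 0.73, in the order given. The shCtrl medians of BoM over BrM3 were -0.20, -0.19, 0.02, 0.43, 0.47 and 0.15. Those of LM2 over BrM3 were 0.87, 0.64, 0.84, -0.41, -0.23 and -0.63. In the windows on chromosomes 15, 9, X and 2, LM2 thus lay farther from BrM3 than BoM did. On chromosome 1 BoM lay farther, and on chromosome 18 the distances were similar. Over whole chromosomes, the median was -0.51 on chromosome 9 and 0.35 on chromosome 18. DNA copy number was not analysed here, so its part in these medians was not tested.

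**Figure D5:**
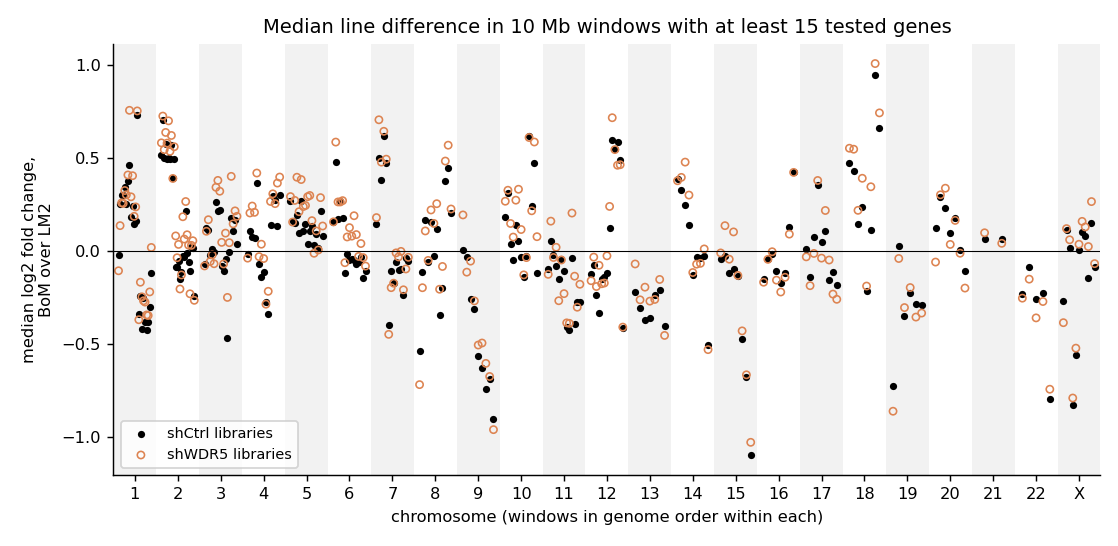
Median log2 fold change of BoM over LM2 in 264 windows of 10 Mb, by chromosome and in genome order within each, in the shCtrl libraries (black) and in the shWDR5 libraries (orange circles). Windows at the ends of chromosomes 15 and 9 lie lowest, at -1.10 and -0.90, and a window on chromosome 18 lies highest, at 0.95, with the shWDR5 values close to them.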

How the data were processed

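Poly(A) RNA of cultured BoM and LM2 cells was sequenced paired-end. Per the labels and the study's methods, the authors aligned the reads with STAR 2.7.0 to hg38, and they deposited raw counts per gene, with DESeq2 and CASAVA 1.8.2 also among their tools. The strand setting of the counting is not given in the sources used here. A second deposited table holds only the authors' own comparisons of shWDR5 with shCtrl in each line (log2 fold changes and adjusted p-values) and was not used, and 0 columns of per-sample counts were left out. Groups were taken from titles and cell line labels, since the source labels of 4 of the 6 libraries name another line. Of 58815 genes 58472 were matched to a GENCODE annotation of GRCh38, which gave positions and missing symbols.

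Genes were kept by the threshold with the highest Jaccard index between replicates (145.727 normalized counts, index 0.970), computed anew after the study's method, and 12081 genes remained. The model was edgeR 4.0.16 (R 4.3.3) over 18 libraries in 6 groups with TMM scaling, quasi-likelihood tests and Benjamini-Hochberg adjustment at 0.05. All adjusted p-values in the report come from that fit, except that of SPP1 without BoM replicate 3, which comes from the fit without that library. Each ± is an approximate SE, the absolute log2 fold change divided by the square root of its quasi-likelihood F. The fit was tested on simulated data. Between replicates the chi-square per gene was 25.4 to 89.3, above sampling noise, so none was counted as a duplicate. The labels give replicates as separate passages of a line, so p-values measure the spread between passages. Total counts of 20064987 to 119667013 per library set the precision of low genes.

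Members and gene lists were chosen with earlier results of these data known. Named genes were WDR5, the 10 protein-coding genes with the largest change each way among called genes with no overlap and at least 10 CPM in the higher line, the 5 with the smallest p each way, up to 4 each way per list with at least 1 CPM, every tested bone and lung metastasis gene, up to 8 each way at 500 CPM or more and 2-fold, and up to 3 in each of 6 genome windows. Further list members that are named were chosen after their values were seen. Alternatives were DESeq2 1.42.0, upper-quartile scaling, other filters, the 6 libraries alone, a replicate block, thinning to 17485841 counts, a GC correction and leaving out each library. Some genes that met the rule are not reported here.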

Additional observations from a re-analysis of the deposited data

How the results depend on the processing

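Of the 272 called genes that the naming rule chose, 249 kept their call and direction under all 16 alternatives, and 23 lost the call under at least 1 of them. None of the 272 turned direction. Under each alternative, 84.9% to 99.9% of the 6256 calls were shared in the same direction, and 0 were called in the opposite direction. The number called was 5359 to 6242 when 1 library was left out, 6488 with DESeq2, 6283 with upper-quartile scaling (3373 higher and 2910 lower), 6020 after thinning to equal depth, 5742 from the 6 libraries alone and 7486 with the GC correction.

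With weaker filters more genes of low count entered. At least 2-fold differences then rose to 1524 higher and 1631 lower with filterByExpr and to 1927 and 1841 without a filter. The cancer-testis antigen genes called higher rose to 23 without a filter, and those called lower to 4 with either weaker filter. With filterByExpr 1 MHC class II gene was called higher. Under the GC correction, with or without the replicate block, 4 lung metastasis genes were called higher, and the cause was not tested. SPP1 was called at 0.90 without a filter, against no call in the report.

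The replicate numbers did not pair the lines. Deviations of same-numbered libraries correlated at 0.297, 0.436 and -0.619, and BoM replicate 2 was closer to LM2 replicate 3 (0.767). With the replicate block 6854 genes were called in the fit of 18 libraries, 5594 in that of the 6 libraries and 7829 with the GC correction as well.

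Genes that were not called changed sign in some fits. SPP1 was -0.55 with the replicate block in 6 libraries, -0.056 with block and GC correction, and -4.61 to 2.74 when a library was left out. SRGN was -0.067 with the GC correction and -0.069 with the block as well, ROBO1 -0.047 and -0.062, and ID3 0.0013 and 0.0147. When a library was left out, IL11 ran from -0.029 to 0.13, SRGN from -0.083 to 0.15, FSCN1 from -0.097 to 0.37, ROBO1 from -0.096 to 0.20, ID3 from -0.37 to 0.11 and MAN1A1 from -0.33 to 0.017.

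Genes with a few reads in the lower line, such as MMP2, VCAM1, MAGEA11 and XAGE2, have folds set by those few reads. The counts of near-identical or overlapping genes are uncertain.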
